A study of Mus musculus with 11 samples.

Results

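The levels of 10 genes for growth factor receptors and identity markers of macrophages were followed in 2 comparisons of mouse macrophage transcriptomes. They were the colony-stimulating factor (CSF) receptors Csf1r, Csf2ra, Csf2rb and Csf3r, the ligand Csf1, the chemokine receptors Cx3cr1 and Ccr2, and the surface markers Adgre1, Ly6c2 and Fcrls. The members were selected by gene name, and all 10 were found in both deposited tables, among 37375 genes in all. All 10 passed the filter on low reads in both comparisons.

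RNA sequencing had been done on 11 libraries from C57BL/6 mice that carried subcutaneous Lewis lung carcinoma (LLC), a transplanted mouse lung tumor. KO_TAM denotes 4 libraries of tumor-associated macrophages from LysMCre;Sin1fl/fl mice, WT_TAM denotes 4 libraries of the same cells from Sin1fl/fl mice, and WT_SP denotes 3 libraries of splenic macrophages from tumor-bearing Sin1fl/fl mice. All groups thus carried the floxed allele and the tumor. They differed by Cre or by site, and the sites differed also by the gate of the sort. Mice received the tumor cells at 6 to 8 weeks of age and were sampled 14 days later. Sin1, encoded by Mapkap1, is a subunit of mTOR complex 2, and LysM-Cre is expressed from the Lyz2 locus and deletes floxed genes in macrophages, monocytes and neutrophils. Both sorts took CD45+ cells without Ly6G or Ly6C that carried F4/80. Tumor cells had also to be CD11b+, and spleen cells TCRβ- with low CD11b. F4/80 is the protein of Adgre1 and Ly6C is the protein of Ly6c1 and Ly6c2, so both gates used products of genes examined here. The labels do not tie each library to its own mouse, and the p-values therefore reflect the spread among these libraries only, which may be technical.

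CSF1 (M-CSF) and interleukin 34 signal through the tyrosine kinase receptor Csf1r, on which most macrophages depend for survival. GM-CSF signals through the specific chain Csf2ra paired with Csf2rb, a chain shared with the receptors for interleukins 3 and 5, while G-CSF signals through Csf3r, best known from neutrophils. In the usual description of mouse monocytes, classical cells carry Ly6C and Ccr2, and patrolling monocytes and many resident macrophages carry Cx3cr1. Fcrls, an Fc receptor-like scavenger receptor, is best known from mouse microglia.

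The deposited values were scaled reads, from which the whole reads were recovered, and levels are given as CPM, reads scaled to a common library total. Recovered reads ranged between 9858726 and 13116664 in KO_TAM, between 7635600 and 13075539 in WT_TAM and between 10630485 and 11812242 in WT_SP. A count of 3 reads amounted to at most 0.492 CPM, a limit that covers counting error only. A pair of libraries stood apart. WT_TAM replicate 4 was the shallowest and had a mean correlation of 0.901 with its group over genes, against 0.953 to 0.956 for the other WT_TAM libraries. It was the lowest WT_TAM library for 6 of the 10 members. KO_TAM replicate 2 had 0.950, against 0.965 to 0.969 for the other KO_TAM libraries, and was the highest KO_TAM library for 5 members and the lowest for 3. Mapkap1, the targeted gene, had 44.0, 54.1, 43.3 and 45.9 CPM in KO_TAM against 71.1, 66.4, 59.7 and 30.7 CPM in WT_TAM (limma adjusted p = 0.658). Which exon Cre removes is unknown here, so reads over the whole gene are a weak check of the labels. In bulk libraries such as these, fewer cells of a type and less RNA per cell cannot be told apart.

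The first comparison, KO_TAM against WT_TAM, sets tumor macrophages of floxed mice with LysM-Cre beside those of floxed mice without it. No group had Cre without the floxed allele, so loss of Sin1 and the Cre itself cannot be told apart here. Csf1r averaged 1456 CPM in KO_TAM and 1572 CPM in WT_TAM. Cx3cr1 averaged 35.5 CPM in KO_TAM against 112.5 CPM in WT_TAM, and Fcrls 47.6 CPM in KO_TAM against 116.9 CPM in WT_TAM. Csf3r and Adgre1 had higher means in KO_TAM, at 74.3 against 37.7 CPM in WT_TAM and at 849.9 against 455 CPM in WT_TAM. None of these differences passed the test across all genes. Of the 10 members, 0 were called, as of the 12808 genes tested (0%) with limma at an adjusted p of 0.05. At an unadjusted p under 0.05 there were 4 members, beside 2353 of all genes (18.4%, and 2223 with limma voom). The groups did not overlap for 2 members, Cx3cr1 and Fcrls, beside 15.2% of all genes. The median log2 fold change of the members was 0.20, beside 0.01 over all genes tested. Without KO_TAM replicate 2 and WT_TAM replicate 4 together, 65 genes were called and 0 of them were members.

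**Figure D1:**
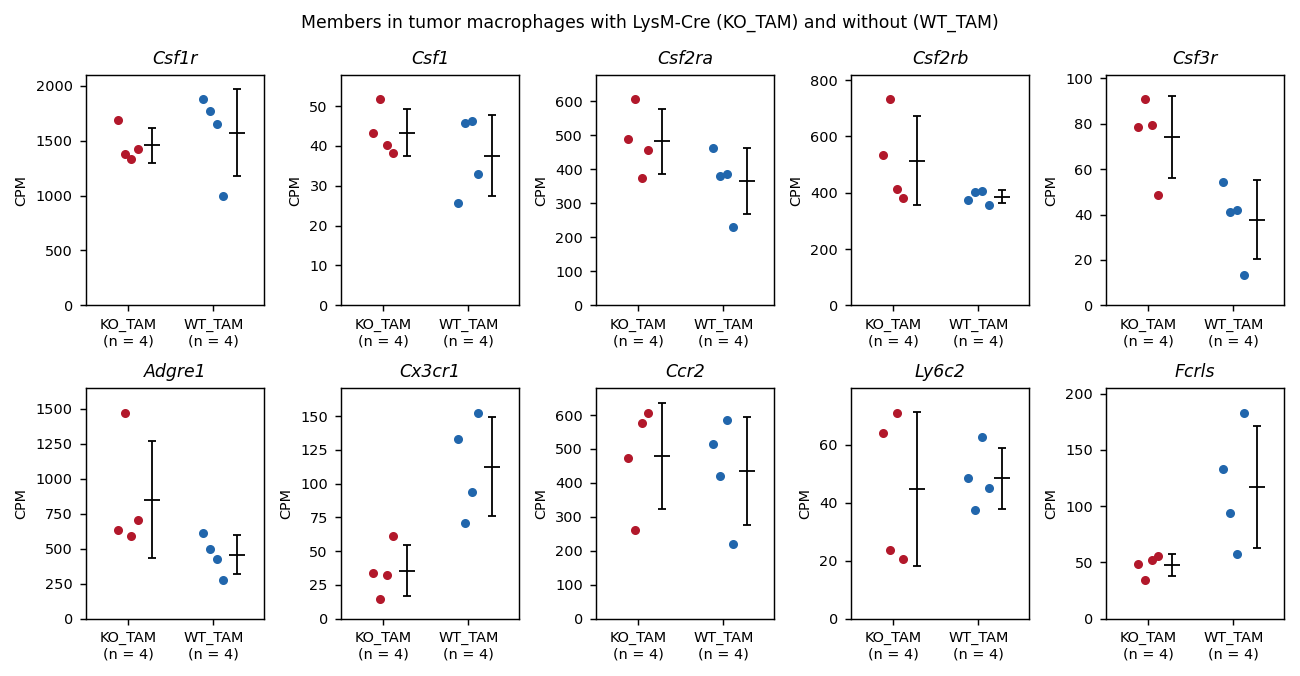
Level of each member in CPM (y axis, from 0) in the 4 KO_TAM and 4 WT_TAM libraries. Points are libraries in order of replicate number and bars are the mean ± SD. Cx3cr1 and Fcrls are the 2 members whose groups do not overlap, and the highest Adgre1 point, at 1472 CPM, is KO_TAM replicate 2.

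Csf1r is a gene of chromosome 18 (61100598 to 61132149, plus strand, GRCm38 like all positions here). It had the highest CPM of the members in every tumor library except KO_TAM replicate 2, where Adgre1 was higher. Its levels were 1689, 1381, 1329 and 1424 CPM in KO_TAM and 1875, 1772, 1651 and 991 CPM in WT_TAM. WT_TAM replicates 1 and 2 lay above all of KO_TAM, and WT_TAM replicate 4 lay below all of KO_TAM. In log2 terms KO_TAM differed by -0.08 ± 0.22 (SE; limma adjusted p = 0.869). Csf1, its ligand (chromosome 3, 107741048 to 107760469, minus strand), ranged between 38.3 and 51.7 CPM in KO_TAM and between 25.6 and 46.3 CPM in WT_TAM, which gave 0.23 ± 0.23 in log2 terms (SE; adjusted p = 0.575 by limma).

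Neither chain of the GM-CSF receptor passed the test. Csf2ra, the ligand-specific chain, ranged between 375 and 605 CPM in KO_TAM and between 230 and 462 CPM in WT_TAM, which gave 0.43 ± 0.24 in log2 terms (SE; adjusted p = 0.354 by limma). Csf2rb, the shared signaling chain, had 534, 732, 412 and 380 CPM in KO_TAM and 375, 402, 407 and 358 CPM in WT_TAM. The WT_TAM libraries were close together, and KO_TAM replicates 1, 2 and 3 lay above all of them, replicate 3 only just. Its log2 fold change was 0.37 ± 0.22 (SE; limma adjusted p = 0.370). Csf2rb2, the mouse-specific chain of the interleukin 3 receptor, ranged between 102 and 138 CPM in KO_TAM, above the 43.5 to 94.9 CPM of WT_TAM, but did not pass the test (log2 fold change 0.80 ± 0.25, SE; limma adjusted p = 0.174).

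Csf3r, the G-CSF receptor (chromosome 4, 126024550 to 126044440, plus strand), had 78.6, 90.7, 79.4 and 48.5 CPM in KO_TAM and 54.5, 40.98, 41.9 and 13.5 CPM in WT_TAM. The groups overlapped through KO_TAM replicate 4 and WT_TAM replicate 1. Its log2 fold change was 1.10 ± 0.39 (SE; limma adjusted p = 0.207), and 0.67 without WT_TAM replicate 4. Of the 12 other listed neutrophil markers, 4 were tested (S100a8, Mmp8, Mmp9 and Retnlg), all with values above 0, and 0 passed. Summed over the 12, they had 441 to 1385 CPM in KO_TAM and 125 to 295 CPM in WT_TAM. Within that list, Ly6g was at or near 0 (at most 0.152 CPM in KO_TAM and 0.073 CPM in WT_TAM) and S100a9 reached at most 4.03 CPM in KO_TAM and 1.87 CPM in WT_TAM. Most of the sum came from 3 genes. Retnlg, a resistin-like secreted protein, averaged 293 CPM in KO_TAM and 73.9 CPM in WT_TAM. The proteases Mmp9 and Mmp8 averaged 294 and 147 CPM in KO_TAM, against 88.8 and 33.3 CPM in WT_TAM (limma adjusted p = 0.140 for Retnlg, 0.185 for Mmp9 and 0.102 for Mmp8). The part of these markers in the Csf3r values was not tested.

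Cx3cr1, the fractalkine receptor (chromosome 9, 119901616 to 120069879, minus strand), was the member with the largest difference between the genotypes. It had 33.8, 14.7, 32.3 and 61.2 CPM in KO_TAM and 133, 71.0, 93.6 and 153 CPM in WT_TAM. Every KO_TAM library lay below every WT_TAM library. On the log2 scale the difference was -1.76 ± 0.40 (SE), with a limma adjusted p of 0.113. It was 0.0306 when no filter on low reads was applied, and between 0.0974 and 0.254 under the other alternatives.

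Fcrls (chromosome 3, 87250758 to 87263738, minus strand) had 48.6, 33.9, 52.5 and 55.4 CPM in KO_TAM and 133, 94.0, 57.1 and 183 CPM in WT_TAM. The groups did not overlap, though WT_TAM replicate 3 lay just above the highest KO_TAM library. The log2 fold change was -1.19 ± 0.33 (SE; limma adjusted p = 0.142). Across the 8 tumor libraries the log2 levels of Fcrls and Cx3cr1 had a Pearson r of 0.88. It was 0.77 without KO_TAM replicate 2 and WT_TAM replicate 4. Both values are a description of libraries that share the 2 genotypes.

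The promoters of Cx3cr1 and Fcrls are shown because both genes had lower values in KO_TAM and passed the test as higher in WT_TAM than in WT_SP, and that of Csf2ra because it is the CSF receptor gene that differed most between tumor and spleen (250 bases before to 50 after the start, RefSeq, GRCm38.p6, 5′ to 3′). Capitals mark GAGGAA, a core of sites for PU.1, the myeloid transcription factor encoded by Spi1, searched on both strands.
Cx3cr1 (chr9:120068247-120068546, minus strand): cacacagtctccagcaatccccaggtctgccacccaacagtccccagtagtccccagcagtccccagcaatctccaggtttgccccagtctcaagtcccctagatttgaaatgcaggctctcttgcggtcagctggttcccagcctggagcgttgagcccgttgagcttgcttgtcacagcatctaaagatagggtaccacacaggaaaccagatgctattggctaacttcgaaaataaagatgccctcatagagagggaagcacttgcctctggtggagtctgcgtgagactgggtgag
Fcrls (chr3:87263475-87263774, minus strand): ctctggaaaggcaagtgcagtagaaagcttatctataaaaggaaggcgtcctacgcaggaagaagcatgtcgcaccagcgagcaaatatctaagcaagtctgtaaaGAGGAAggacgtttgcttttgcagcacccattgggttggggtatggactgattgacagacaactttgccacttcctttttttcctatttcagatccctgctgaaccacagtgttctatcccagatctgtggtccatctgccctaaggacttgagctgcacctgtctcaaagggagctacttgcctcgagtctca
Csf2ra (chr19:61228369-61228668, minus strand): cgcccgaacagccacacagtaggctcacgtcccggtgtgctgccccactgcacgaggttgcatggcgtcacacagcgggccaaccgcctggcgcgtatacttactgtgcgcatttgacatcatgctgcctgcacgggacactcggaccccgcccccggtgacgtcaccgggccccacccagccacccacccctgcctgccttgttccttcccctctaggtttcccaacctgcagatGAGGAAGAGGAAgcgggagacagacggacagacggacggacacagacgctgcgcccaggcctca
The Cx3cr1 window holds 0 matches, the Fcrls window 1 and the Csf2ra window 2 that follow each other directly. RefSeq promoters were found for 7 of the 10 members, and 4 of these 7 held the motif. By promoter it was 5 of 8, beside 28.3% of all 32851 promoters. The 5 count Ly6c2 at each of its start sites, whose windows overlap and hold the same matches. TTGCNNAA, a motif of C/EBP factors, was searched too. It was found in 0 of the 8 promoters, beside 10.8% of all. A match is a stretch of letters, not evidence of binding.

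Ccr2, the receptor for the monocyte chemokine CCL2 (chromosome 9, 124101950 to 124113557, plus strand), did not pass the test either. It had 472, 261, 577 and 607 CPM in KO_TAM and 514, 421, 586 and 220 CPM in WT_TAM. The lowest library of each group was one of the pair that stood apart. Its log2 fold change was 0.16 ± 0.35 (SE; limma adjusted p = 0.822), and -0.14 without WT_TAM replicate 4.

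The ratio of Cx3cr1 to Ccr2 reads within a library, which no scaling between libraries can move, was 0.0718, 0.0563, 0.0560 and 0.101 in KO_TAM and 0.258, 0.169, 0.160 and 0.695 in WT_TAM. All KO_TAM ratios lay below all WT_TAM ratios. The mean log2 ratio was -3.85 ± 0.40 in KO_TAM and -1.92 ± 0.98 in WT_TAM (SD, n = 4 each), a difference of -1.93. In an exact two-sided permutation test p was 0.0286, the smallest that 4 against 4 libraries allow, and 0.114 after Benjamini-Hochberg adjustment over the 4 ratio tests. The ratio of Csf1r to Csf2rb reads was 3.16, 1.89, 3.22 and 3.75 in KO_TAM and 5.01, 4.40, 4.05 and 2.77 in WT_TAM, which overlapped through WT_TAM replicate 4 (difference of log2 means -0.44, exact permutation p = 0.171).

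**Figure D2:**
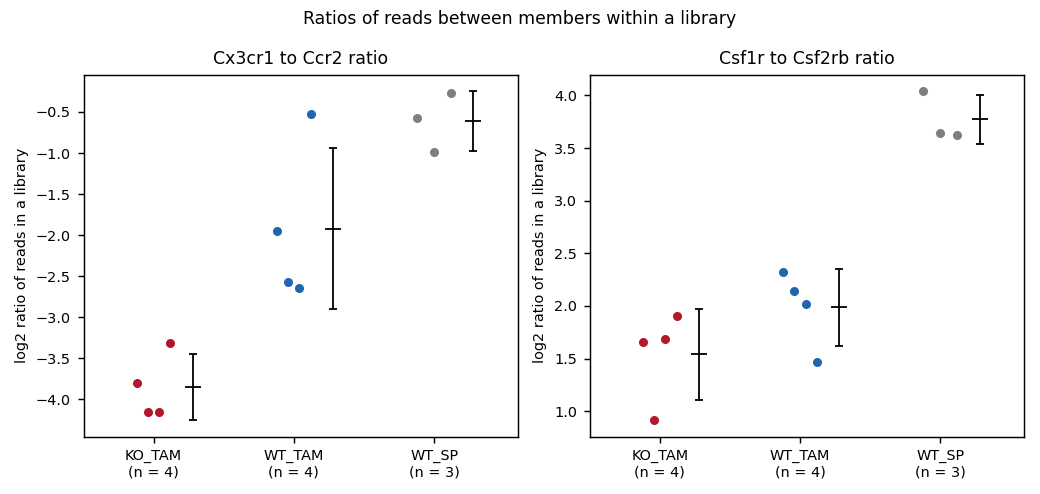
Log2 ratio of reads of Cx3cr1 to Ccr2 and of Csf1r to Csf2rb in each library (y axis, 0.5 reads added to each gene), for 4 KO_TAM, 4 WT_TAM and 3 WT_SP libraries. Points are libraries and bars are the mean ± SD. The Cx3cr1 to Ccr2 ratio averages -3.85 in KO_TAM, -1.92 in WT_TAM and -0.61 in WT_SP.

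Adgre1, which encodes the F4/80 antigen used in the sort (chromosome 17, 57358691 to 57483527, plus strand), had 632, 1472, 590 and 705 CPM in KO_TAM and 614, 499, 429 and 279 CPM in WT_TAM. KO_TAM replicate 2 stood far above every other library, and KO_TAM replicate 3 lay below WT_TAM replicate 1. On the log2 scale the difference was 0.85 ± 0.33 (SE; limma adjusted p = 0.228), and 0.55 without KO_TAM replicate 2. Eosinophils also carry F4/80. The 11 listed markers of eosinophils, basophils and mast cells summed to 217, 659, 138 and 221 CPM in KO_TAM and 112, 113, 102 and 24.0 CPM in WT_TAM, so the library highest in Adgre1 was also highest in this sum and the library lowest in Adgre1 was lowest. Most of the sum was Siglecf, a surface lectin of eosinophils and alveolar macrophages, with a mean of 219 CPM in KO_TAM and 46.8 CPM in WT_TAM (limma adjusted p = 0.192). Prg2, eosinophil major basic protein, averaged 13.4 CPM in KO_TAM and 2.38 CPM in WT_TAM (limma adjusted p = 0.171), while Epx, the eosinophil peroxidase, was at or near 0, with at most 0.251 CPM in KO_TAM and 0.772 CPM in WT_TAM. The mast cell proteases Cpa3, Mcpt4 and Tpsb2 had lower means in KO_TAM (limma adjusted p between 0.158 and 0.259). Adgre4, a related receptor of macrophages and eosinophils, had 90.9, 416, 116 and 139 CPM in KO_TAM and 85.7, 58.0, 49.2 and 5.27 CPM in WT_TAM (log2 fold change 2.18 ± 0.78, SE; limma adjusted p = 0.203). The part of eosinophil transcripts in the Adgre1 values was not tested.

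**Figure D3:**
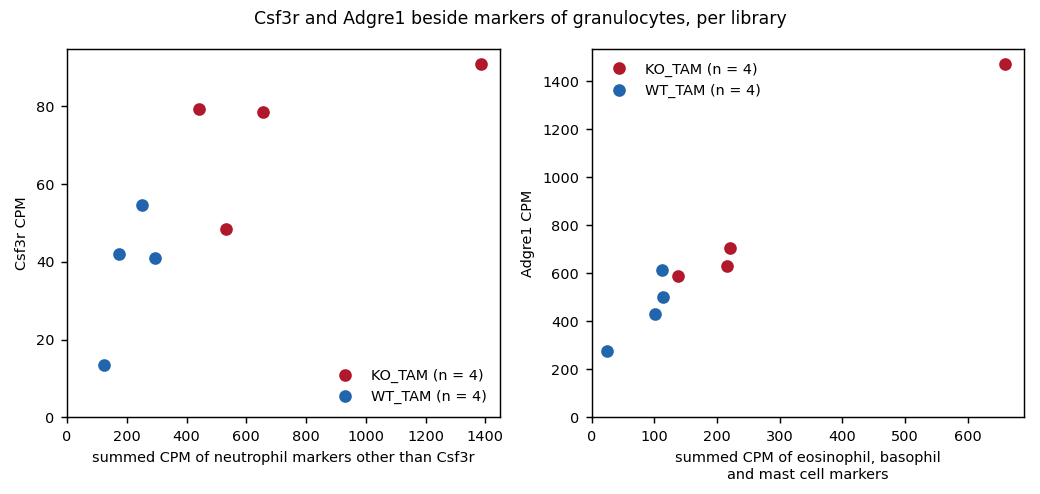
Csf3r CPM against the summed CPM of the other neutrophil markers (left), and Adgre1 CPM against the summed CPM of eosinophil, basophil and mast cell markers (right), for 4 KO_TAM and 4 WT_TAM libraries, 1 point each. KO_TAM replicate 2 is the rightmost point in both panels, at 1385 and 659 CPM.

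Ly6c2, which encodes part of the Ly6C antigen that the sort selected against (chromosome 15, 75108158 to 75111970, minus strand), was read in every library. It had 64.0, 23.5, 71.0 and 20.5 CPM in KO_TAM and 48.6, 37.3, 62.5 and 45.1 CPM in WT_TAM. KO_TAM libraries lay on both sides of the WT_TAM range, and the log2 fold change was -0.30 ± 0.40 (SE; limma adjusted p = 0.691). Its neighbor Ly6c1 had 10.7, 4.24, 34.9 and 11.2 CPM in KO_TAM and 20.7, 72.0, 33.7 and 84.2 CPM in WT_TAM (log2 fold change -1.91 ± 0.60, SE; limma adjusted p = 0.170).

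The 2 Ly6c genes are near copies, shown here by the first 120 coding bases of each (chromosome 15, minus strand, GENCODE M21, 5′ to 3′), with the 6 bases that differ in capitals.
Ly6c2: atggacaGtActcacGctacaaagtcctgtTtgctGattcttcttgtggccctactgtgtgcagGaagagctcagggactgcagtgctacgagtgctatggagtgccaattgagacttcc
Ly6c1: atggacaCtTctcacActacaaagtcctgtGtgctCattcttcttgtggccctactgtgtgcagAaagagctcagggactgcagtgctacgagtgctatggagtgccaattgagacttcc
Of the 50-base stretches of the Ly6c2 transcript, 252 of 773 (32.6%) also occur in Ly6c1, and of those of Csf2rb, 892 of 4851 (18.4%) also occur in Csf2rb2. Adgre1 and Adgre4 share 0 of 3189. The treatment of reads that match both copies is unknown here, so the levels of Ly6c2 and Csf2rb are uncertain to that extent.

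The wider pathways around the members were described from lists, and 0 genes of any list passed the test between KO_TAM and WT_TAM. In both comparisons, some lists hold members, whose values are then counted again. The CSF and related growth factor receptors include the members Csf1r, Csf2ra, Csf2rb and Csf3r. Of the 9 genes in that list, 6 had a log2 fold change above 0 and the median was 0.37, that of Csf2rb. The largest was that of Il5ra, the interleukin 5 receptor of eosinophils, at 59.7 ± 48.8 CPM over the KO_TAM libraries and 12.3 ± 7.73 over WT_TAM (SD, n = 4 each; log2 fold change 2.43 ± 0.80, SE; limma adjusted p = 0.185). Of 29 genes of CSF receptor signaling, 26 were above 0 with a median of 0.29, beside 0.01 over all genes. Among these, Cblb, a ubiquitin ligase that restrains receptor kinases, had 46.5 ± 14.2 CPM over the KO_TAM libraries and 19.7 ± 6.44 over WT_TAM (limma adjusted p = 0.133). Pik3ap1, an adaptor of PI3 kinase, had 140 ± 41.9 CPM over the KO_TAM libraries and 106 ± 60.2 over WT_TAM (limma adjusted p = 0.515), and the 2 most abundant genes of the list, the adaptor Tyrobp and the feedback inhibitor Socs3, had adjusted p of 0.699 and 0.762 in limma.

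Of the 7 CSF ligands and related factors in the table, 4 passed the filter. Il34, the second ligand of Csf1r, had 4.72 ± 3.64 CPM over the KO_TAM libraries and 21.9 ± 11.8 over WT_TAM (log2 fold change -2.36 ± 0.65, SE; limma adjusted p = 0.137). Kitl, stem cell factor, had 1.13 ± 0.55 CPM over the KO_TAM libraries and 3.36 ± 0.51 over WT_TAM (limma adjusted p = 0.118), and Flt3l, the ligand of FLT3, had 17.2 ± 4.90 CPM over the KO_TAM libraries and 12.6 ± 1.73 over WT_TAM (limma adjusted p = 0.370). Listed fibroblast and endothelial markers summed to 157 to 334 CPM in KO_TAM and 437 to 909 CPM in WT_TAM. Their part in these values was not tested. Csf2, which encodes GM-CSF, did not pass the filter and reached at most 0.705 CPM in KO_TAM and 1.19 CPM in WT_TAM.

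Genes listed with Fcrls as markers of microglia and resident macrophages mostly had lower values in KO_TAM. This list of 13 genes also holds Cx3cr1. Of its genes 10 were tested, 0 passed and 9 were below 0. The members Fcrls and Cx3cr1 are among the 9, and the list was chosen with earlier results of these data known. The median log2 fold change was -1.01, beside 0.01 over all genes. Sparc, a matrix protein, had 65.8 ± 44.9 CPM over the KO_TAM libraries and 381 ± 249 over WT_TAM (limma adjusted p = 0.114), beside the fibroblast sums given above. Trem2, a lipid-sensing receptor of macrophages, had 169 ± 36.7 CPM over the KO_TAM libraries and 314 ± 198 over WT_TAM (limma adjusted p = 0.284). Sall1, a defining factor of microglia, was at or near 0, with 0 reads in KO_TAM and at most 0.085 CPM in WT_TAM.

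The 23 macrophage identity markers, with Adgre1 and Csf1r among them, had a median log2 fold change of 0.07, with 12 above 0 and 11 below. Their summed level was 17220 to 29726 CPM in KO_TAM and 38056 to 59258 CPM in WT_TAM, and Lyz2 had the highest mean level of the list. Most of the gap between the mean sums, 25684 CPM in KO_TAM and 46631 CPM in WT_TAM, lay in Lyz2 alone. Lyz2, lysozyme, whose locus carries the Cre, had 10333 ± 5332 CPM over the KO_TAM libraries and 27423 ± 4779 over WT_TAM (log2 fold change -1.64 ± 0.46, SE; limma adjusted p = 0.143). C1qb, a chain of complement C1q, had 1855 ± 439 CPM over the KO_TAM libraries and 4209 ± 2371 over WT_TAM (limma adjusted p = 0.175).

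The chemokine axes and the transcription factors had medians near that of all genes. Of 9 tested genes in the axes of Ccr2 and Cx3cr1, these receptors included, 6 were above 0 (median 0.10). Ccr1 had 671 ± 77.0 CPM over the KO_TAM libraries and 461 ± 125 over WT_TAM (limma adjusted p = 0.229). Ccl7, a ligand of Ccr2, had 578 ± 205 CPM over the KO_TAM libraries and 436 ± 98.8 over WT_TAM (limma adjusted p = 0.456). Of 12 transcription factors that act on these receptor genes, 7 were above 0 (median 0.06). The 2 largest differences were those of Cebpa (log2 fold change -0.79 ± 0.61, SE) and Klf4 (-0.71 ± 0.42), with limma adjusted p of 0.483 and 0.361. Egr1, an abundant early response factor, had a limma adjusted p of 0.871.

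The second comparison, WT_TAM against WT_SP, sets tumor macrophages beside splenic macrophages of tumor-bearing mice. Tumor and spleen cells were sorted through different gates, so site and gate cannot be told apart here. Fcrls, both GM-CSF receptor chains, Ccr2, Csf1 and Cx3cr1 were higher in WT_TAM, and Ly6c2 was lower. Csf1r, Adgre1 and Csf3r did not pass the test. With limma, 7 of the 10 members were called at an adjusted p of 0.05, beside 6625 of 14168 genes tested (46.8%). The 6 higher members stand beside 23.1% of all genes and the 1 lower member beside 23.6%. At an unadjusted p under 0.05 there were 9 members, beside 53.9% of all genes. The groups did not overlap for 7 members, beside 56.2% of all genes. The median log2 fold change of the members was 2.24, beside -0.07 over all genes. When CPM were taken from the library total alone, that overall median was -0.51 and the split of calls was 2162 higher and 5490 lower, against 3275 and 3350, while the same 7 members were called in the same directions.

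**Figure D4:**
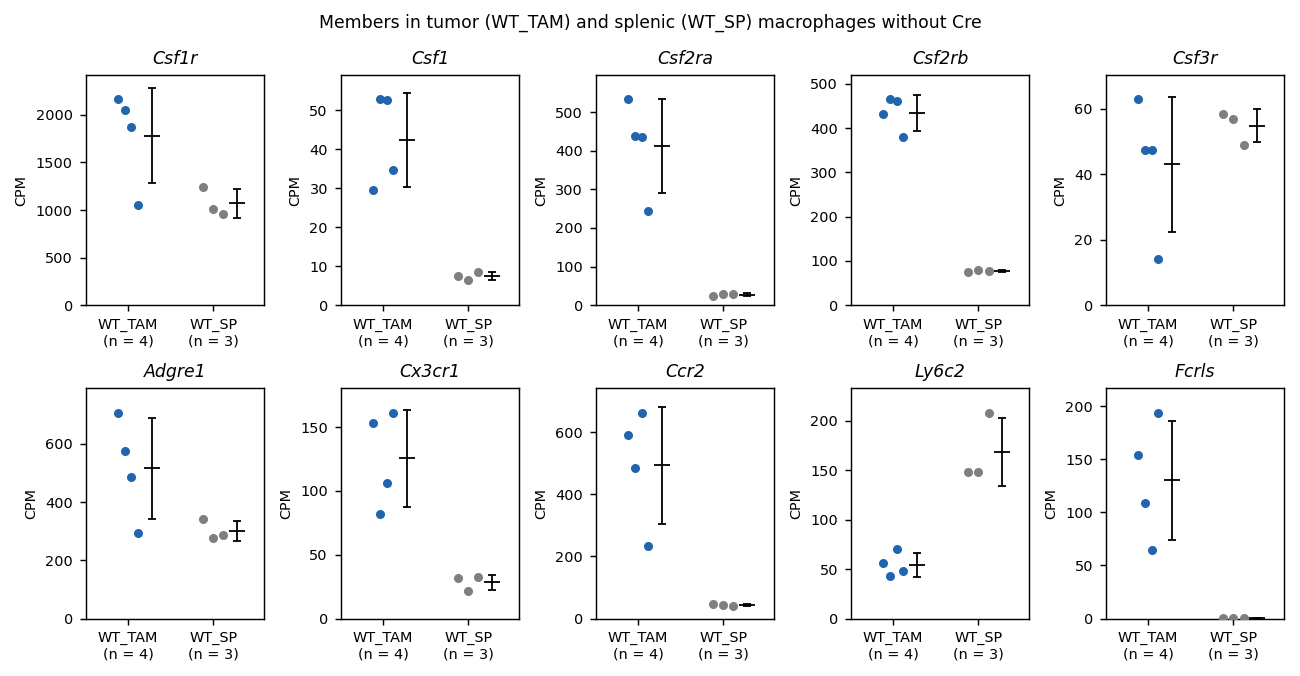
Level of each member in CPM (y axis, from 0) in the 4 WT_TAM and 3 WT_SP libraries, scaled within the table of this comparison. Points are libraries in order of replicate number and bars are the mean ± SD. Ly6c2 is the only called member that is higher in WT_SP, at 149 to 208 CPM.

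Fcrls had the largest difference. It had 154, 109, 64.7 and 194 CPM in WT_TAM, against 0.423, 0.309 and 0.220 CPM in WT_SP. The WT_SP levels rest on 6, 4 and 3 reads, so the gene was barely detected in spleen at this depth. The ratio of means was 410, with an interval of 240 to 771 from the Poisson 95% interval of the 13 WT_SP reads, which covers counting error only. Its log2 fold change was 7.22 ± 0.36 (SE; limma adjusted p = 1.52e-06), and it depended on the small amount added before taking logs, with 5.72 when 2 CPM were added and 8.44 with limma voom.

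The GM-CSF receptor chains were higher in WT_TAM in every library. Csf2ra had 533, 439, 436 and 243 CPM in WT_TAM and 23.0, 28.9 and 30.5 CPM in WT_SP, which gave 3.84 ± 0.27 in log2 terms (SE; adjusted p = 9.89e-06 by limma). Csf2rb had 432, 465, 461 and 379 CPM in WT_TAM and 75.5, 80.4 and 77.6 CPM in WT_SP, which gave 2.47 ± 0.16 in log2 terms (SE; adjusted p = 4.69e-06 by limma). The 2 chains thus differed by unequal amounts. Csf2rb2 was higher too, at 76.4 ± 25.4 CPM in WT_TAM (SD, n = 4) and 6.89 ± 0.21 CPM in WT_SP (SD, n = 3), with a limma adjusted p of 1.93e-05.

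Csf1r had 2161, 2046, 1870 and 1049 CPM in WT_TAM and 1244, 1006 and 960 CPM in WT_SP. WT_TAM replicate 4 lay within the WT_SP range and the other WT_TAM libraries above it. The log2 fold change was 0.69 ± 0.27 (SE; limma adjusted p = 0.0654), and leaving out WT_TAM replicate 4 gave 0.93 (limma adjusted p = 2.64e-05). With upper quartile scaling of all libraries it was 0.69 (limma adjusted p = 0.0308), and with the library total alone 0.21 (limma adjusted p = 0.566). Csf1 had 29.5, 52.7, 52.5 and 34.8 CPM in WT_TAM and 7.47, 6.41 and 8.43 CPM in WT_SP, which gave 2.40 ± 0.26 in log2 terms (SE; adjusted p = 0.000104 by limma).

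Within a library, Csf1r and Csf2rb were nearer to each other in the tumor. The ratio of their reads was 5.01, 4.40, 4.05 and 2.77 in WT_TAM and 16.5, 12.5 and 12.4 in WT_SP, so the groups were apart. The difference of log2 means was -1.78, and the exact two-sided permutation p was 0.0571, the smallest that 4 against 3 libraries allow, or 0.114 adjusted over the 4 ratio tests.

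Csf3r, in contrast, did not differ beyond the spread of the libraries. It had 62.8, 47.3, 47.5 and 14.3 CPM in WT_TAM and 58.3, 57.0 and 49.0 CPM in WT_SP, which gave -0.53 ± 0.45 in log2 terms (SE; adjusted p = 0.371 by limma). It was -0.067 without WT_TAM replicate 4 and -0.99 with the library total alone, and passed under neither. The other neutrophil markers summed to 132 to 341 CPM in WT_TAM and 1097 to 3018 CPM in WT_SP, and in WT_SP they included Ly6g at 2.93 to 11.7 CPM, against at most 0.084 CPM in WT_TAM. Their part in the WT_SP level of Csf3r was not tested.

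The chemokine receptors were both higher in WT_TAM. Ccr2 had 593, 486, 663 and 232 CPM in WT_TAM and 46.9, 43.0 and 38.7 CPM in WT_SP, which gave 3.41 ± 0.34 in log2 terms (SE; adjusted p = 7.2e-05 by limma). Cx3cr1 had 153, 82.0, 106 and 161 CPM in WT_TAM and 31.5, 21.6 and 32.3 CPM in WT_SP, which gave 2.09 ± 0.28 in log2 terms (SE; adjusted p = 0.000364 by limma). Neither receptor overlapped between the groups. Their ratio of reads did overlap, with 0.258, 0.169, 0.160 and 0.695 in WT_TAM and 0.671, 0.503 and 0.833 in WT_SP (difference of log2 means -1.31, exact permutation p = 0.171).

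Among the surface markers, Ly6c2 was lower in WT_TAM, with 56.0, 43.1, 70.8 and 47.7 CPM in WT_TAM and 149, 149 and 208 CPM in WT_SP (log2 fold change -1.63 ± 0.22, SE; limma adjusted p = 0.000446). Its near copy Ly6c1 went the other way, with 58.5 ± 32.4 CPM in WT_TAM (SD, n = 4) and 15.9 ± 2.40 CPM in WT_SP (SD, n = 3; log2 fold change 1.66 ± 0.44, SE; limma adjusted p = 0.0144). Adgre1 had 707, 577, 486 and 295 CPM in WT_TAM and 341, 276 and 287 CPM in WT_SP, which gave 0.71 ± 0.29 in log2 terms (SE; adjusted p = 0.0733 by limma), and 0.96 when WT_TAM replicate 4 was left out (limma adjusted p = 0.000152). Upper quartile scaling gave 0.71 (limma adjusted p = 0.0340) and the library total alone 0.24 (limma adjusted p = 0.548). Adgre4 was at 56.8 ± 38.7 CPM in WT_TAM (SD, n = 4) and 173 ± 20.7 CPM in WT_SP (SD, n = 3), which missed the threshold (limma adjusted p = 0.0631).

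**Figure D5:**
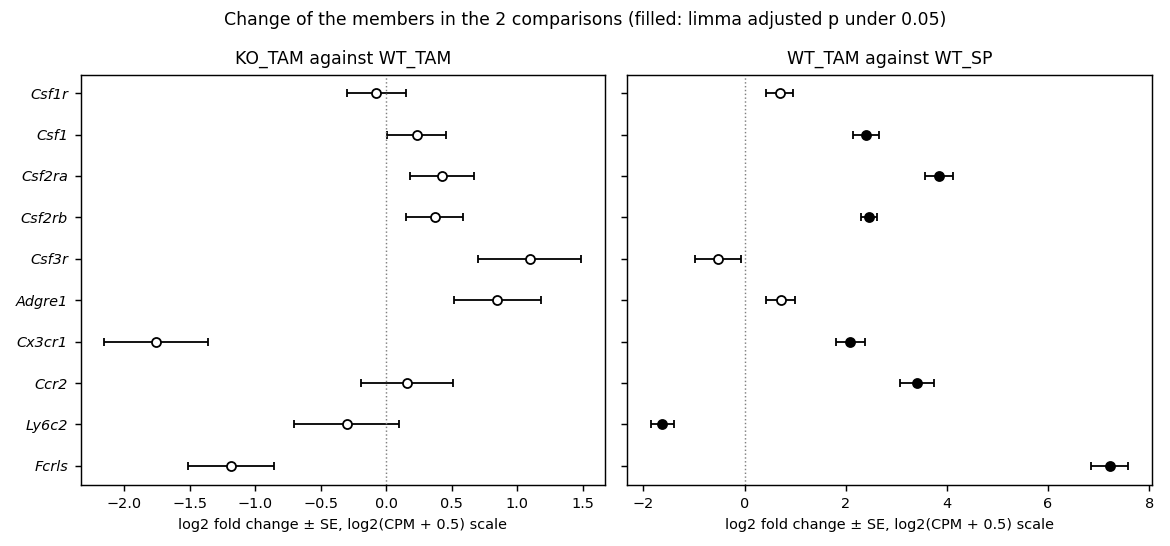
Log2 fold change ± SE of each member on the log2(CPM + 0.5) scale (x axis), in KO_TAM against WT_TAM (left) and WT_TAM against WT_SP (right), which share the WT_TAM libraries. Filled points passed limma at an adjusted p of 0.05. None is filled on the left, and 7 are filled on the right, from -1.63 for Ly6c2 to 7.22 for Fcrls.

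Both groups held transcripts that mark other cells, and these stand beside all results of this comparison. Counts of called genes in the lists stand beside 23.1% higher and 23.6% lower in WT_TAM over all genes tested. Listed B and plasma cell markers summed to 10.3 to 74.5 CPM in WT_TAM and 7896 to 8990 CPM in WT_SP, and 7 of the 7 genes were lower in WT_TAM. T and NK cell markers summed to 111 to 198 CPM in WT_TAM and 1157 to 1260 CPM in WT_SP, with 10 of 10 lower in WT_TAM. Of the markers of macrophages themselves, the red pulp list summed to 786 to 1709 CPM in WT_TAM and 4380 to 4829 CPM in WT_SP. Macrophage identity markers summed to 43102 to 62684 CPM in WT_TAM and 6407 to 6962 CPM in WT_SP. Abundant genes weigh most in such sums. In the first comparison Lyz2 alone averaged 27423 CPM of a mean sum of 46631 CPM in WT_TAM. Csf1r and Adgre1, also in the identity list, averaged 1781 and 516 CPM in WT_TAM and 1070 and 301 CPM in WT_SP. Neither passed the test, while 17 of the 23 genes were called higher. Fibroblast and endothelial markers summed to 500 to 1050 CPM in WT_TAM and 196 to 244 CPM in WT_SP, with 6 of 8 tested genes higher and 1 lower in WT_TAM. Epithelial markers summed to 185 to 412 CPM in WT_TAM and 11.2 to 19.4 CPM in WT_SP. The part of other cells in the values of the members and of Il34 was not tested.

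Of the macrophage identity markers, 17 of 23 were higher and 2 lower in WT_TAM, with a median log2 fold change of 2.18. Over all genes tested, 23.1% were higher and 23.6% lower. Cd14, the endotoxin co-receptor, had 2759 ± 366 CPM in WT_TAM and 41.3 ± 12.6 CPM in WT_SP (limma adjusted p = 5.05e-07), and the scavenger receptor Msr1 had 1199 ± 250 CPM in WT_TAM and 5.54 ± 0.59 CPM in WT_SP (limma adjusted p = 3.47e-07; SD, n = 4 and n = 3). Of the 11 tested genes in the list that holds Fcrls and Cx3cr1, 7 were higher, with these members among them, and 3 lower. Trem2 had 347 ± 200 CPM in WT_TAM and 1.02 ± 0.61 CPM in WT_SP (limma adjusted p = 1.88e-06).

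Of the 12 transcription factors, 10 were higher in WT_TAM and 1, Irf8, was lower, with a median of 2.04. These counts stand beside 23.1% higher and 23.6% lower over all genes tested. Ets2 had 354 ± 124 CPM in WT_TAM and 29.9 ± 1.62 CPM in WT_SP (limma adjusted p = 4.86e-05), Klf4 had 137 ± 98.0 CPM in WT_TAM and 9.39 ± 4.26 CPM in WT_SP (limma adjusted p = 0.000396), and Irf8, a factor of monocytes and dendritic cells, had 425 ± 21.1 CPM in WT_TAM and 619 ± 31.4 CPM in WT_SP (limma adjusted p = 0.0177).

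Of 29 genes of CSF receptor signaling, 11 were higher and 5 lower, beside 23.1% and 23.6% of all genes tested. The 2 largest differences were those of feedback inhibitors of cytokine receptors. Socs3 had 680 ± 213 CPM in WT_TAM and 51.6 ± 4.86 CPM in WT_SP (limma adjusted p = 1.79e-05), and Cish had 51.5 ± 15.9 CPM in WT_TAM and 7.12 ± 1.35 CPM in WT_SP (limma adjusted p = 0.000119). The phosphatase Ptpn6 was lower in WT_TAM, at 515 ± 104 CPM against 793 ± 23.7 CPM in WT_SP (limma adjusted p = 0.0283), and the adaptor Tyrobp was higher, at 1695 ± 585 CPM in WT_TAM and 440 ± 43.6 CPM in WT_SP (limma adjusted p = 0.000357).

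Of the 9 CSF and related growth factor receptors, 3 were higher (Csf2ra, Csf2rb and Csf2rb2) and 2, Flt3 and Kit, lower. Over all genes tested, 23.1% were higher and 23.6% lower, which stands beside each list of this paragraph. Of the 4 tested ligands, Csf1 and Il34 were higher and Flt3l was lower. Il34 had between 11.4 and 40.3 CPM in WT_TAM and between 0.077 and 1.34 CPM in WT_SP (limma adjusted p = 0.000122), and Flt3l had 14.2 ± 2.24 CPM in WT_TAM and 33.7 ± 2.28 CPM in WT_SP (limma adjusted p = 0.000818). Of 10 tested genes of the chemokine axes, 9 were higher, Ccr2 and Cx3cr1 among them, and 1 lower. Ccl7 had 488 ± 98.5 CPM in WT_TAM and 0.212 ± 0.307 CPM in WT_SP (limma adjusted p = 3.47e-07). Ccl8 had 278 ± 205 CPM in WT_TAM and 0.121 ± 0.153 CPM in WT_SP (limma adjusted p = 3.61e-06). In a WT_SP library 3 reads amount to 0.211 to 0.232 CPM. The spleen mean of Ccl8 lies under that level and the mean of Ccl7 at it, with an SD above the mean for both.

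Divided by gene length, the members had a different order in each group. In KO_TAM the order of mean CPM per kilobase was Csf1r (488 ± 53.8), Adgre1 (293 ± 144), Csf2ra (269 ± 53.2), Ccr2 (166 ± 54.2), Csf2rb (136 ± 42.1), Ly6c2 (112 ± 66.4), Csf3r (23.6 ± 5.73), Fcrls (21.002 ± 4.21), Csf1 (16.8 ± 2.30) and Cx3cr1 (9.52 ± 5.15; SD, n = 4). Neighbors in this order overlapped in range, except that Ly6c2 lay above Csf3r in every library. In WT_TAM of the same table Csf1r (527 ± 133) stood above Csf2ra (203 ± 54.2) and the lowest 2 were Csf1 (14.6 ± 3.93) and Csf3r (11.97 ± 5.49; SD, n = 4), with Cx3cr1 (30.2 ± 9.90) above Csf1. In WT_SP the highest was Ly6c2 (422 ± 86.5), which overlapped with Csf1r (359 ± 51.0), and the lowest was Fcrls (0.140 ± 0.045; SD, n = 3).

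The genes most like Csf1r across the 8 tumor libraries, among 8102 genes of at least 10 CPM, were Dapk1, Txndc11, Map4, Tfe3 and Xpnpep1, with Pearson r of log2 levels between 0.977 and 0.988. Those most like Csf3r were Nceh1, Tpcn2, Smc5, Kif13b and Setd2, with r between 0.987 and 0.992. Without KO_TAM replicate 2 and WT_TAM replicate 4, r was between 0.942 and 0.989 for the first set and between 0.933 and 0.968 for the second. With so many genes and 8 libraries that share 2 genotypes and the low values of WT_TAM replicate 4, these correlations are a description.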

How the data were processed

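RNA had been sequenced in 11 libraries, grouped by their titles. The labels' protocols describe flow sorting and Trizol extraction. DESeq2, HTSeq, SAMtools, HISAT, HISAT2 and TopHat2 are the tools that the submitters' processing notes name, with mm10 as build. What each tool did, with which settings, strand and annotation, is unknown here.

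The authors deposited 2 tables of values that are not counts, treated as a score, with 35118 genes (KO_TAM and WT_TAM) and 35597 genes (WT_TAM and WT_SP). From the values, each is a whole number of reads divided by gene length, library total and a library factor, then multiplied by a factor recycled over the table. Reads were recovered from these steps and made up 99.9% to 100% of each implied total. In 35 genes, 98 values were not whole and were restored, from the other table for the 49 of WT_TAM and by removing a round amount or putting back a digit for the 49 of KO_TAM, none of them of a member or of a gene named in the text.

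Log2(CPM + 0.5), scaled by the authors' factor, entered limma 3.58.1 (R 4.3.3, with trend and robust options) for all genes with the CPM of 10 reads at the median total in a number of libraries equal to the smaller group, plus 15 reads in all. P-values were two-sided and adjusted by Benjamini-Hochberg over all genes tested, with a threshold of 0.05. Fold changes on this scale understate those of low genes. Each table was tested alone, and levels are compared within a table. The fit was also run on simulated reads with a common spread for all genes and no library that stood apart, unlike these data. That run does not show how the fit performs on these libraries. Ratios were tested by exact permutation with 0.5 reads added. Loci are from GENCODE M21 and promoters from RefSeq, both on the build of the labels.

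The members and lists were chosen with earlier results of these data known. Named genes were the members, the related genes Csf2rb2, Ly6c1 and Adgre4, and the 5 genes most correlated with Csf1r and with Csf3r. From each pathway list, the 2 highest and the 2 of largest change were named too. Some genes that this rule names are not reported here. Cell type markers, Mapkap1, Spi1, Csf2, Sall1, Flt3 and Kit were named after their values were seen.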

Additional observations from a re-analysis of the deposited data

Results flagged for a closer look

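Adgre1 in KO_TAM replicate 2, at 1472 CPM, was far from the other KO_TAM libraries, which lay between 590 and 705 CPM, with a gap to the nearest that made up 0.870 of the range of the group. It was the 1 flag among 20 groups of 4 libraries examined, and chance alone flags about 1 in 20. The same library was the highest of the 8 tumor libraries for Adgre4, at 416 CPM, and for the summed eosinophil, basophil and mast cell markers, at 659 CPM.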

How the results depend on the processing

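Of the recomputed counts and ratios, 83 stayed within 1.5 times a count or kept the direction and side of the threshold, 9 lost the threshold and 4 moved further. All 9 were settings of the Cx3cr1 to Ccr2 ratio of KO_TAM against WT_TAM, judged by its unadjusted exact permutation p. With a library left out or a block by replicate, no p under the threshold was possible, so the 9 losses were fixed beforehand. With all libraries, its adjusted p of 0.114 did not pass. The side was fixed likewise for the other ratio in those settings and for both ratios of WT_TAM against WT_SP in every setting. There only the direction could change. Of the recomputed member fold changes, 281 kept both, 7 newly passed and 2 changed sign. Genes called between KO_TAM and WT_TAM numbered 104 with no filter on low reads (21 higher and 83 lower), 4 with the values as deposited and 65 without both KO_TAM 2 and WT_TAM 4. With no filter on low reads 1 member was called, Cx3cr1. When 1 library was left out, the log2 fold change of KO_TAM against WT_TAM ranged between -0.28 and 0.023 for Csf1r (above 0 without WT_TAM replicate 1) and between -0.14 and 0.43 for Ccr2 (below 0 without WT_TAM replicate 4). The cause was not tested. Csf1r and Adgre1 passed the threshold in WT_TAM against WT_SP with upper quartile scaling (limma adjusted p = 0.0308 and 0.0340), which makes 9 members called, and not with the library total alone (0.566 and 0.548). Genes called there ranged between 5008 and 9133 when 1 library was left out. The Cx3cr1 to Ccr2 ratio of KO_TAM against WT_TAM differed by -2.17 to -1.47 when 1 library was left out (exact permutation p = 0.0571, the smallest that design allows). With the replicate number as a block it was -1.93 with an exact permutation p of 0.125, again the smallest possible. The labels call the mice paired but do not tie numbers to pairs, and deviations of same-numbered libraries correlated between -0.16 and 0.20 in KO_TAM and WT_TAM and between -0.09 and 0.10 in WT_TAM and WT_SP, so the numbers were not taken as pairs. The block gave 0 calls between genotypes and 9008 between sites, with 9 members, where only replicates 1 to 3 inform the fit. Values as deposited could not be tried for WT_TAM against WT_SP, where no value had been restored. WT_TAM replicate 4 had the fewest reads, 7635600, and without it 0 genes were called between the genotypes and 9133 between the sites.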
